A study of Mus musculus with 6 samples.

Results

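The inflammasome and interleukin-1 (IL-1) family genes described here were 10 genes chosen by symbol: the sensors *Nlrp3*, *Nlrc4* and *Aim2*, the adaptor *Pycard*, the caspases *Casp1* and *Casp4*, the pore protein *Gsdmd*, the cytokines *Il1b* and *Il18*, and the IL-1 receptor antagonist *Il1rn*. All 10 were found among the 57010 annotated genes and all 10 reached the minimum of 10 counts over the 6 libraries, as did 15903 genes in all, which were tested. RNA was measured in bone-marrow-derived macrophages (BMDMs) grown for 7 days with 10 ng/ml of the growth factor M-CSF. The marrow came from 3 Cx3cr1GFP mice on the C57BL/6J background, so every library of both groups carries the GFP allele. The cells of each mouse were either left unstimulated (control, n = 3) or exposed to an additional 62 mM NaCl over 24 h (NaCl, n = 3). Sex, age and GFP zygosity of the mice are not given in the sources used here. Only adherent cells were sequenced, and the labels name no Toll-like receptor ligand or other inflammasome stimulus. Cleavage and secretion of the proteins were not measured here.

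An inflammasome is a cytosolic complex in which a sensor protein, once triggered by microbial or danger signals, recruits the adaptor ASC (encoded by *Pycard*) and activates caspase-1. Caspase-1 cleaves the precursors of IL-1β and IL-18 and opens gasdermin D, which forms pores in the plasma membrane, while caspase-11 (encoded by *Casp4* in mice) cleaves gasdermin D in response to cytosolic lipopolysaccharide. In resting macrophages the *Il1b* mRNA is scarce and is induced by NF-κB signalling, whereas *Il18* is transcribed constitutively. Both cytokines have natural inhibitors: the receptor antagonist encoded by *Il1rn* occupies the IL-1 receptor without signalling, and the secreted protein encoded by *Il18bp* binds IL-18.

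The total counts per library ranged from 4088065 in NaCl replicate 3 to 20123570 in control replicate 3, so that a single count was worth 0.24 CPM in the former and 0.0504 CPM in the latter (CPM, counts scaled to a common library size after TMM normalization). The summed level of 10 macrophage markers was 24123.8 to 26434.8 CPM in control and 30063.2 to 38403.0 CPM in NaCl libraries, and all 10 were detected. The median log2 fold change of these 10 markers was -0.13, and with the block *Csf1r* and *Lyz2* were higher and *Mertk*, *Mrc1*, *Ctsd* and *Aif1* lower. The summed level of 13 neutrophil markers was 339.293, 619.416 and 470.386 CPM in the controls of mice 1, 2 and 3, against 337.262, 431.211 and 340.887 CPM in their NaCl libraries. Summed markers of monocytes were 235 to 309 CPM in control and 292 to 384 CPM in NaCl libraries, whereas the median log2 fold change of the 8 genes was -0.12, with *Ifitm6* and *Fn1* higher with the block. Those of dendritic cells, mast cells and basophils, lymphocytes, erythroid and stromal cells did not exceed 12.0 CPM in any library, with *Cd3e* at 0 throughout. In bulk RNA, fewer cells of a type and less RNA per cell cannot be told apart.

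Of the 10 genes, *Il1rn* was the one that passed a test across all genes, when the mouse was entered as a block or the count minimum was lowered to 1. With the block its mRNA fell to 0.631 of the control level under excess NaCl, whereas *Il1b* was higher in the NaCl library of each mouse without passing at an adjusted p of 0.05 in any fit. The sensors, the adaptor, the caspases and *Gsdmd* lay within 0.33 of the control on the log2 scale, and *Il18* was lower in all 3 mice without passing. In the test without the mouse (edgeR quasi-likelihood, Benjamini-Hochberg adjusted over 15903 genes), 0 of the 10 genes passed an adjusted p of 0.05, against 0.654% of all genes tested, and 2 of 10 (*Nlrp3* and *Il1rn*, both lower) had an unadjusted p under 0.05, against 12.6% of all genes. DESeq2 without the mouse also called 0 of the 10 genes, against 3.12% of the genes it gave an adjusted p. With the mouse as a replicate block, 1 of 10 genes (10.0%) passed, against 8.9% of all genes, so the share among the 10 genes lay near the background. DESeq2 with the block likewise called *Il1rn* alone, against 6.96% of all genes, and so did edgeR without the block but with a minimum total count of 1, against 2.67%.

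The promoters of the agonist and the antagonist of the IL-1 receptor are shown because these transcripts, both on chromosome 2, were compared with each other within every library. The sequences are the 250 bases upstream of RefSeq transcription starts (GRCm38.p6), written 5′ to 3′ on the strand of the gene, and the capitals mark matches to the motifs searched on both strands. The motifs were TGANTCA (bound by AP-1), TATAAA (the TATA box), TGGAAA (the core bound by NFAT5, a transcription factor of the response to hypertonic stress) and GAGGAAG (PU.1).
*Il1b*, chr2:129371140-129371389, minus strand: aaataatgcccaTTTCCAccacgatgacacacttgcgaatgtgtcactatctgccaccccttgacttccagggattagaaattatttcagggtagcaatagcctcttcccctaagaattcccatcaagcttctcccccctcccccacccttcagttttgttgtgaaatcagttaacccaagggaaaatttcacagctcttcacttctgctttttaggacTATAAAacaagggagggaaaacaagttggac
*Il1rn*, upstream start, chr2:24336610-24336859, plus strand: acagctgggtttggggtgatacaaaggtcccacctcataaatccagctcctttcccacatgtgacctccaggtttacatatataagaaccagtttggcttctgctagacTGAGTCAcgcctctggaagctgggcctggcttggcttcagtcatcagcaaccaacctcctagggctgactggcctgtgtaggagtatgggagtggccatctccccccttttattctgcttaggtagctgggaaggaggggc
*Il1rn*, downstream start, chr2:24345121-24345370, plus strand: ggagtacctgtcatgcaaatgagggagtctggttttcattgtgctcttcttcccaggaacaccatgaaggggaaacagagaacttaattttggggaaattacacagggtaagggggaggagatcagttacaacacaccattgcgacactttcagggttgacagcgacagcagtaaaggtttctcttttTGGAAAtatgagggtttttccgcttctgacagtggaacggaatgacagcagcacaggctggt
Counted from the start, with -1 as the base before it, the *Il1b* promoter held TATAAA at position -31 and TGGAAA on the reverse strand (printed as TTTCCA) at -238. The upstream *Il1rn* promoter held TGAGTCA at -141, and the downstream one held TGGAAA at -62. A further *Il1rn* window that overlaps the downstream one held none of the motifs. *Il1rn* uses alternative starts for its secreted and intracellular forms, and the counts per gene do not separate them. TGGAAA was present in 18.6% of 32851 RefSeq promoters of this length, TATAAA in 12.4%, GAGGAAG in 10.6% and TGANTCA in 6.75%. RefSeq promoters were matched for 9 of the 10 genes, with 13 windows in all. Of these 13 windows, 5 held TGGAAA, 3 GAGGAAG, 2 TATAAA and 1 TGANTCA. A match is a description of the letters and not a site.

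To compare levels between genes, CPM values were divided by the exonic length of each gene (CPM per kb). This length joins the exons of all annotated transcripts of a gene. It can exceed the length of the transcripts present, so the order of the genes is approximate. In control BMDMs *Casp1* had the highest level of the 10 genes, with 78.9 ± 6.2 CPM per kb (SD, n = 3). *Gsdmd* followed at 34.5 ± 2.03 and *Il1rn* at 27.8 ± 5.07 CPM per kb, and these neighbours overlapped, since the lowest *Gsdmd* library (33.1) lay below the highest *Il1rn* library (33.4). *Nlrp3* at 17.8 ± 1.09, *Aim2* at 13.1 ± 1.3 and *Pycard* at 10.2 ± 0.0696 CPM per kb came next without overlap between neighbours. *Il18* at 7.28 ± 0.936 overlapped with *Casp4* at 5.01 ± 2.02, and *Casp4* overlapped with *Nlrc4* at 4.19 ± 0.61 CPM per kb. *Il1b* was the lowest with 1.45 ± 0.498 CPM per kb, so the antagonist mRNA exceeded the agonist mRNA in unstimulated cells.

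Under excess NaCl *Casp1* was again the highest of the 10 genes at 63.7 CPM per kb and *Il1b* again the lowest at 2.04 CPM per kb. *Gsdmd* at 40.3 CPM per kb and *Il1rn* at 17.9 CPM per kb no longer overlapped, whereas *Il1rn* overlapped with *Nlrp3* at 14.3 CPM per kb.

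**Figure D1:**
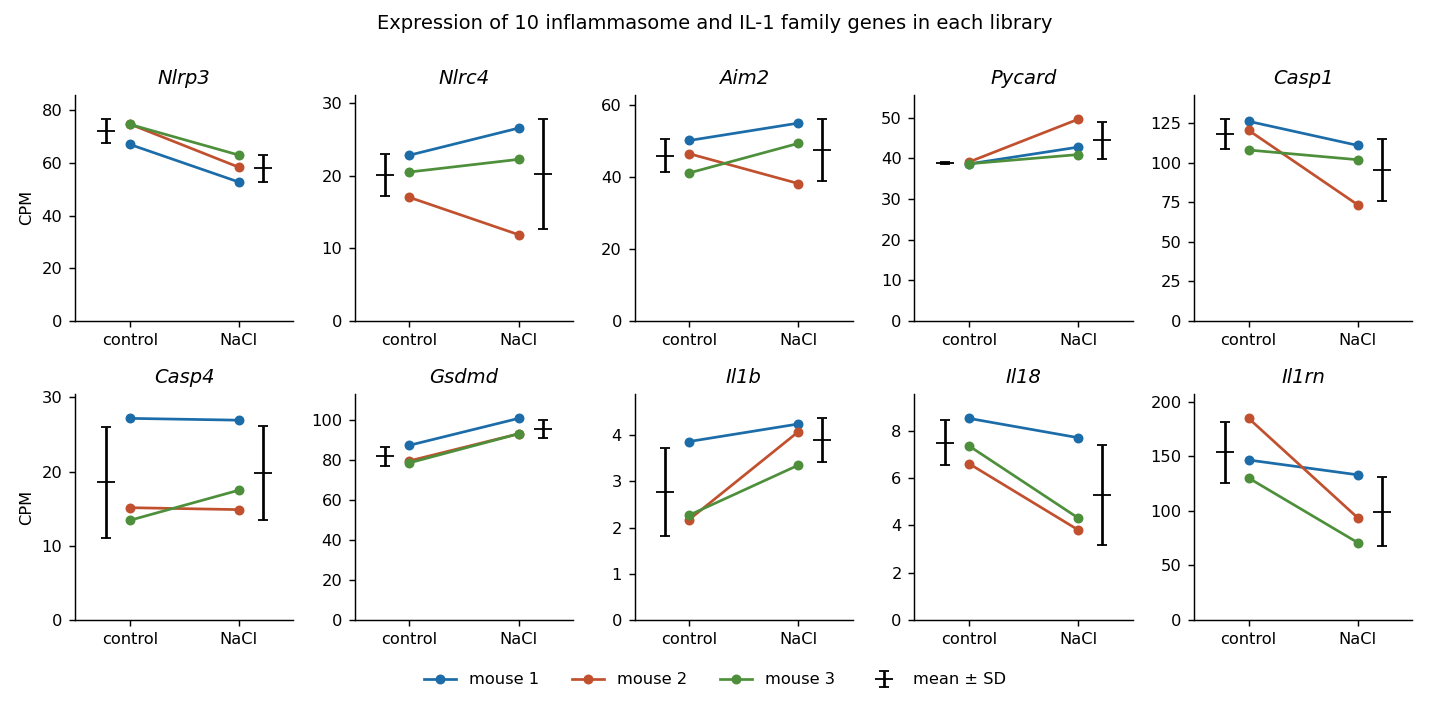
Expression of the 10 genes in each library (y axis, CPM, starting at 0; x axis, control and NaCl), with the libraries of each mouse joined by a line and the mean ± SD of each group beside them (n = 3). *Il1rn*, *Il18*, *Casp1* and *Nlrp3* were lower in the NaCl library of all 3 mice, *Il1b*, *Pycard* and *Gsdmd* were higher in all 3 mice, and *Nlrc4*, *Aim2* and *Casp4* moved in both directions.

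Among the cytokines and their antagonist, *Il1rn* measured 146, 185 and 130 CPM in the controls of mice 1, 2 and 3, and 133, 93.4 and 70.7 CPM with NaCl replicates 1, 2 and 3. The NaCl libraries of mice 2 and 3 lay below every control library, whereas that of mouse 1 lay just above control replicate 3, so the groups overlapped. The mean level was 154 ± 28.0 CPM in control and 99.0 ± 31.5 CPM with NaCl (SD, n = 3). The log2 fold change was -0.63 (SE 0.22) with an edgeR adjusted p of 0.284. With the mouse as a block it was -0.66 (SE 0.14), a level of 0.631 of control with a 95% interval of 0.518 to 0.769, and an edgeR adjusted p of 0.00217. DESeq2 gave an adjusted p of 0.171 without and 0.00405 with the block. The within-mouse log2 ratios were -0.14, -0.98 and -0.88 for mice 1, 2 and 3, so the decrease in mouse 1 was small. The call with the block held when each mouse was left out in turn (3 of 3, log2 fold change -0.92 to -0.47, edgeR adjusted p 0.000206 to 0.0125), when 5.93%, 9.57% and 8.75% of all genes passed without mouse 1, 2 and 3. The summed neutrophil markers, given above, were also lower in the NaCl library of all 3 mice (-0.45 as the median log2 fold change of 13 genes, 3 of them, *Mpo*, *Ngp* and *Csf3r*, lower with the block). Their part in the *Il1rn* result was not tested.

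*Il1b* rested on few reads, with 34, 24 and 45 counts in the control libraries and 38, 45 and 14 counts in the NaCl libraries. A count of 14 has an exact 95% Poisson interval of 7.65 to 23.5 and a count of 45 one of 32.8 to 60.2, which cover counting error only. Scaled to depth these were 3.87, 2.17 and 2.27 CPM in control and 4.25, 4.08 and 3.35 CPM with NaCl. Control replicate 1 lay within the range of the NaCl libraries, and the other control libraries lay below it. The mean was 2.77 ± 0.95 CPM in control and 3.89 ± 0.475 CPM with NaCl (SD, n = 3). The log2 fold change of *Il1b* was 0.54 (SE 0.30, 95% interval -0.13 to 1.21) with an edgeR adjusted p of 0.501. With the block the fold was 1.44 with a 95% interval of 0.976 to 2.11 and an edgeR adjusted p of 0.266, so a change of 2-fold was inside the interval. The within-mouse log2 ratios were 0.13, 0.85 and 0.53, and *Il1b* was one of 3 genes higher in all 3 mice, as were 20.1% of all genes tested.

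*Il18* was counted 75, 73 and 146 times in the control libraries and 69, 42 and 18 times in the NaCl libraries. These counts gave 8.53, 6.61 and 7.36 CPM in control and 7.71, 3.81 and 4.31 CPM with NaCl. As for *Il1rn*, the NaCl libraries of mice 2 and 3 lay below all controls and that of mouse 1 lay among them. The log2 fold change was -0.49 (SE 0.29) with an edgeR adjusted p of 0.532, and with the block the fold was 0.692 with an edgeR adjusted p of 0.127. *Il18* was one of 4 genes lower in all 3 mice, with *Nlrp3*, *Casp1* and *Il1rn*, as were 23.4% of all genes tested.

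Since agonist and antagonist compete for the same receptor, the counts of *Il1rn* were divided by those of *Il1b* in each library, which does not depend on the scaling between libraries. The ratio of *Il1rn* to *Il1b* counts was 37.9, 84.9 and 57.2 in the controls of mice 1, 2 and 3, and 31.3, 22.9 and 21.1 in the NaCl libraries. All 3 NaCl libraries lay below all 3 controls, and in mouse 1 the values were closest. The mean log2 ratio was 5.81 ± 0.58 in control and 4.6 ± 0.31 in NaCl (SD, n = 3), a difference of -1.21, which is 2.31-fold lower. The exact two-sided permutation test gave p = 0.1, the smallest that 3 against 3 libraries allow, and exact sign flips over the 3 mice gave p = 0.25, the smallest possible there. The differences within mice 1, 2 and 3 were -0.27, -1.88 and -1.47 on the log2 scale. Per kb of exonic length, *Il1rn* exceeded *Il1b* 13.1-fold to 29.3-fold in control and 7.26-fold to 10.8-fold in NaCl libraries. By this measure the antagonist transcript remained the more abundant one in every library.

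The corresponding inhibitor of IL-18, *Il18bp* on chromosome 7, is one of the further IL-1 family genes considered below. *Il18bp* measured 8.98, 9.06 and 7.31 CPM in control and 5.59, 4.80 and 3.11 CPM with NaCl, with 13 counts in NaCl replicate 3. The groups did not overlap. Its log2 fold change was -0.85 (SE 0.24) with an edgeR adjusted p of 0.182, and with the block the level fell to 0.537 of control with an edgeR adjusted p of 0.0059, whereas DESeq2 with the block gave an adjusted p of 0.0717. The edgeR call with the block held with each mouse left out. The ratio of *Il18bp* to *Il18* counts was 1.05, 1.37 and 0.993 in control and 0.725, 1.26 and 0.722 in NaCl. These ratios overlapped between the groups, and the difference of the mean log2 ratios was -0.37 (exact two-sided permutation test, p = 0.3). Both cytokine and inhibitor of this pair were lower in all 3 mice, whereas in the *Il1b* and *Il1rn* pair the cytokine was higher and the antagonist lower.

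**Figure D2:**
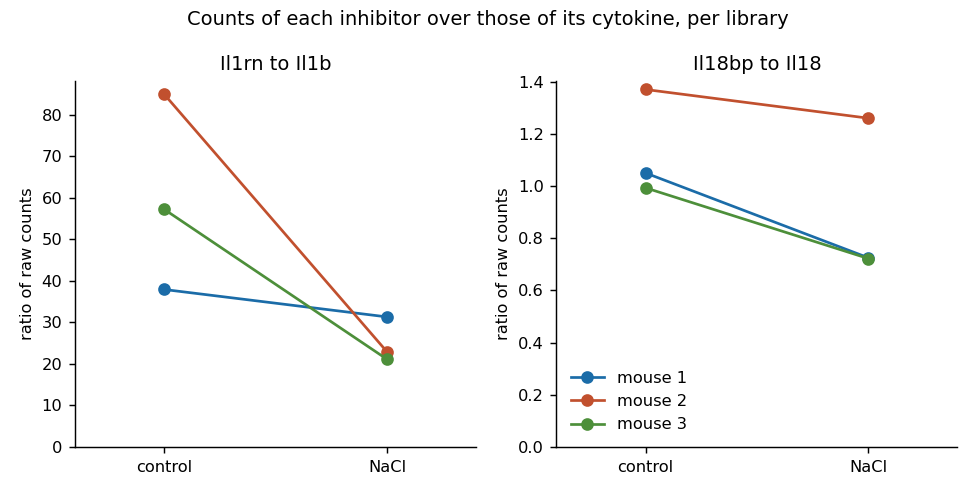
Ratios of the counts of each cytokine inhibitor to those of its cytokine (y axes, ratio of counts on a linear scale, x axis, control and NaCl, lines join the libraries of a mouse). The ratio of *Il1rn* to *Il1b* was 37.9 to 84.9 in control and 21.1 to 31.3 in NaCl libraries, and that of *Il18bp* to *Il18* overlapped between the groups.

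Of the 3 sensors, *Nlrp3*, which responds to potassium efflux and membrane damage, had the most even difference between the mice. It measured 67.1, 74.8 and 74.7 CPM in control and 52.7, 58.4 and 63.0 CPM with NaCl. The groups did not overlap, and the within-mouse log2 ratios of -0.35, -0.36 and -0.25 were close to each other. The log2 fold change was -0.32 (SE 0.13, 95% interval -0.61 to -0.031) with an unadjusted p of 0.0333 and an adjusted p of 0.349 in edgeR. With the block the edgeR adjusted p was 0.0973. Groups that did not overlap, with NaCl lower, were seen for 1 of the 10 genes and for 10.1% of all genes tested.

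*Nlrc4*, the adaptor and sensor for bacterial flagellin and secretion systems recognized by NAIP proteins, measured 22.9, 17.0 and 20.5 CPM in control and 26.6, 11.9 and 22.3 CPM with NaCl. Mouse 2 moved down and mice 1 and 3 moved up. The means of 20.1 ± 2.93 and 20.3 ± 7.57 CPM (SD, n = 3) differed by less than the spread, and the 95% interval of the log2 fold change with the block was -0.38 to 0.27. *Aim2*, the sensor of cytosolic DNA, measured 50.1, 46.5 and 41.1 CPM in control and 55.0, 38.2 and 49.3 CPM with NaCl. Here too mouse 2 moved down and the others up, and with the block the 95% interval was -0.24 to 0.30. Neither gene passed a test, and for both a change of the size measured for *Il1rn* was outside the interval with the block.

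The adaptor gene *Pycard* measured 38.7, 39.1 and 38.7 CPM in control and 42.8, 49.7 and 41.0 CPM with NaCl. Its control libraries were nearly identical (38.8 ± 0.265 CPM, SD, n = 3), and all NaCl libraries lay above them. The log2 fold change of 0.20 (SE 0.13) had an edgeR adjusted p of 0.591, and of 0.398 with the block. Of the 75-base windows of *Pycard* exons, 10.9% also occur in another gene, most often the overlapping *Gm45205*. The *Pycard* counts are therefore less certain than those of the other 9 genes, which shared no such window.

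*Casp1*, the protease that all these sensors activate, measured 126, 120 and 108 CPM in control and 111, 73.2 and 102 CPM with NaCl. The groups overlapped through NaCl replicate 1, and NaCl replicate 2 was far below the rest. Its log2 fold change was -0.31 (SE 0.17) with an edgeR adjusted p of 0.478, and with the block the edgeR adjusted p was 0.11. The within-mouse log2 ratios of -0.19, -0.72 and -0.084 show that mouse 2 carried most of this difference.

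*Casp4* measured 27.2, 15.1 and 13.4 CPM in control and 26.9, 14.9 and 17.5 CPM with NaCl. Both libraries of mouse 1 were high, so this gene varied more between mice than between treatments. Its log2 fold change with the block was 0.098 (95% interval -0.21 to 0.41, edgeR adjusted p of 0.778). *Gsdmd*, the substrate that both caspases cleave to form pores, measured 87.4, 79.6 and 78.6 CPM in control and 101, 93.2 and 93.2 CPM with NaCl. All NaCl libraries lay above all controls, and the within-mouse log2 ratios of 0.21, 0.23 and 0.24 hardly differed. The fold was 1.17 with an edgeR adjusted p of 0.477, and of 0.261 with the block. *Pycard* and *Gsdmd* were the 2 of 10 genes whose groups did not overlap with NaCl higher, against 8.92% of all genes tested.

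**Figure D3:**
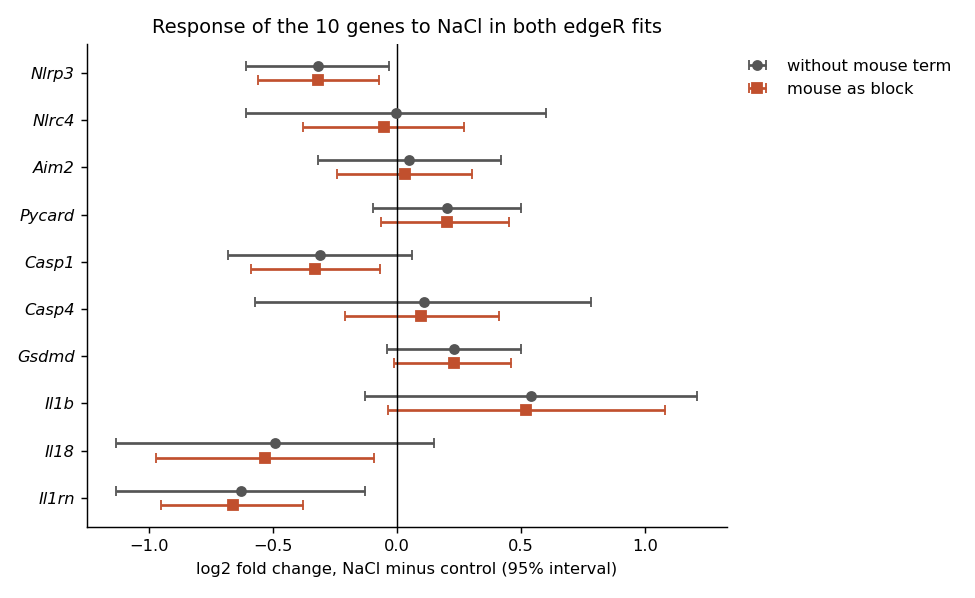
Log2 fold change of the 10 genes (x axis, NaCl minus control; y axis, genes) with approximate 95% intervals from edgeR without and with the mouse as a block. With the block the interval of *Il1rn* was -0.95 to -0.38 and that of *Il1b* -0.035 to 1.08, and *Il1rn* was the one gene of the 10 with an adjusted p under 0.05.

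The median log2 fold change of the 10 genes was 0.022, with 5 above and 5 below 0, against a median of -0.0065 over all genes tested. Their median absolute log2 fold change was 0.27, against 0.24 over all genes tested. The minimum of 10 counts also admits genes with few reads, whose fold changes carry more counting error. These medians therefore do not compare genes of like level.

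The patterns of *Il1b* and *Nlrp3* over the 3 mice were compared with 9856 genes outside the lists. The genes with within-mouse log2 ratios nearest to those of *Il1b*, by Euclidean distance over 3 ratios, were *Lipe* (0.065), *Zfp523* (0.08) and *C5ar2* (0.089). Those nearest to *Nlrp3* were *Hspa9* (0.024), *Cyb5d1* (0.033) and *Ticam1* (0.04). With 3 mice these distances only describe which genes share a profile.

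Further genes of the pathway were read from 8 lists with 84 genes, of which 72 were tested. Without the block 0 of the 72 passed in edgeR, against 0.654% of all genes. An unadjusted edgeR p under 0.05 was found for 16 of the 72 (4 higher and 12 lower), a larger share than the 12.6% of all genes. DESeq2 without the block called 1 higher (*Nfkbiz*) and 2 lower (*Clic4* and *Ikbkg*), against 3.12% of all genes. With the block, 3 were higher and 9 lower in edgeR, against 4.6% and 4.3% of all genes, and together 16.7% of those tested. The background for each list below is the same, 8.9% of all genes called with the block, and no list was tested as a set. The median log2 fold change of the 72 genes was -0.089, with 29 above and 43 below 0.

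**Figure D4:**
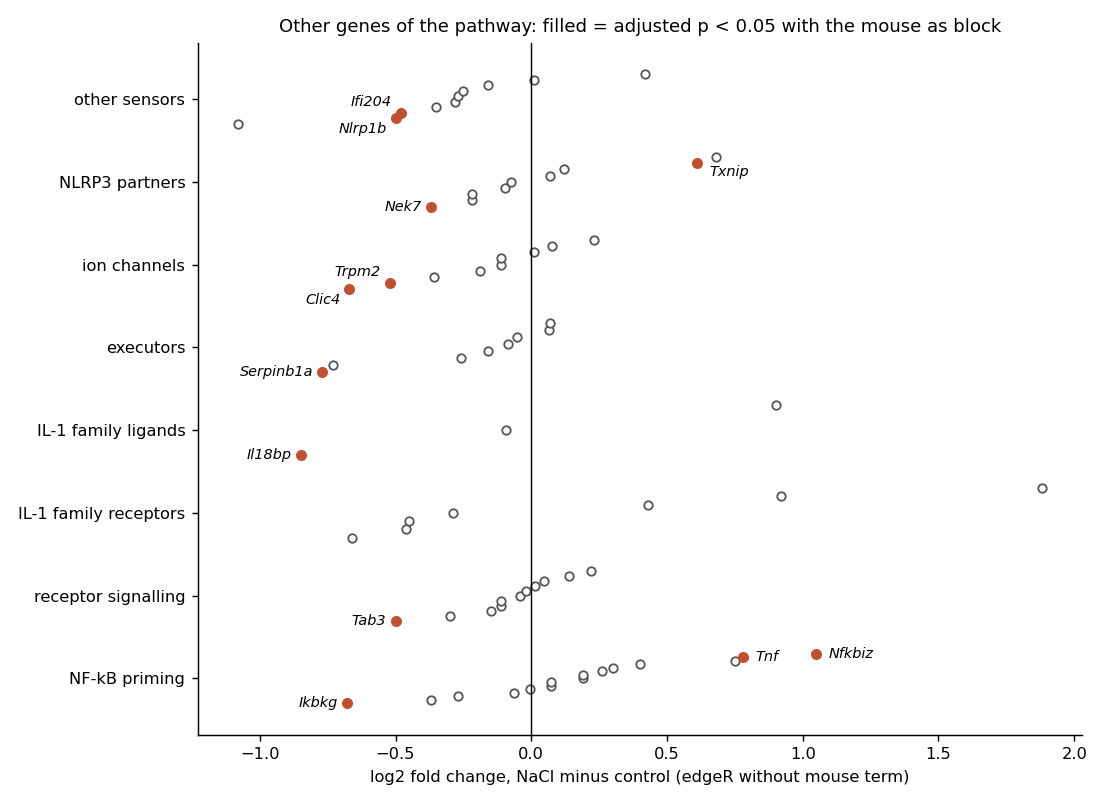
Log2 fold change (x axis, NaCl minus control, edgeR without the mouse term) of the 72 pathway genes tested, by list (y axis). Filled points mark the 12 genes with an adjusted p under 0.05 with the mouse as a block, 9 of them lower and 3 higher in NaCl.

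Among the other sensors, 10 of 12 genes were tested and 2 were lower with the block. *Nlrp1b*, a further inflammasome sensor, measured 82.6 ± 19.4 CPM in control and 58.2 ± 8.56 CPM with NaCl (SD, n = 3). With the block its edgeR adjusted p was 0.00904, and 0.214 without mouse 1. *Ifi204*, an interferon-inducible DNA-binding protein, measured 83.6 ± 8.61 CPM in control and 59.7 ± 19.2 CPM with NaCl. With the block its edgeR adjusted p was 0.0191, and 0.254 without mouse 2, and its DESeq2 adjusted p was 0.0691. Of the exonic windows of *Ifi204*, 13.2% also occur in another gene, most often *Ifi211*. *Naip2*, the NAIP protein for bacterial rod proteins, had 87.1 ± 2.42 CPM in control and 78.1 ± 15.3 CPM with NaCl and did not pass. *Naip5*, the flagellin receptor, had 49.7 ± 10.4 CPM and 41.0 ± 11.6 CPM, and *Mefv*, which encodes pyrin, had 3.43 ± 2.41 CPM and 4.48 ± 2.03 CPM, and neither passed. Of the exonic windows of *Naip2* and *Naip5*, 10.7% and 23.8% also occur in another gene, most often *Naip1*, so these counts are uncertain.

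Of 9 tested NLRP3 partners, 1 was higher and 1 lower with the block. *Nek7*, the kinase that NLRP3 binds when it assembles, was counted at 160, 165 and 173 CPM in control and 134, 104 and 147 CPM with NaCl. All NaCl libraries lay below all controls, and the edgeR adjusted p was 0.339 without and 0.0463 with the block, a call that was lost without any one of the mice (0.0553 to 0.197) and with DESeq2 and the block (adjusted p of 0.0963). *Txnip*, a thioredoxin-binding protein reported to bind NLRP3, was 1.56-fold higher with the block (edgeR adjusted p of 0.000693), with means of 392 ± 148 CPM in control and 596 ± 148 CPM with NaCl and an increase in each mouse (log2 ratios of 0.44, 0.69 and 0.80). Of *Txnip* exonic bases, 19.4% lie opposite another gene, with *Gm15441* the main one, and the library kit does not mark strand.

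Of the 9 genes for ion channels linked to NLRP3 activation, all tested, 2 were lower with the block. *Clic4*, an intracellular chloride channel protein, measured 647, 823 and 824 CPM in control and 481, 430 and 536 CPM with NaCl. The groups did not overlap, and *Clic4* had an edgeR adjusted p of 0.0909 without and 0.000681 with the block, and a DESeq2 adjusted p of 0.00557 without it. *Trpm2*, a calcium-permeable channel, had 20.0 ± 2.60 CPM in control and 13.7 ± 3.27 CPM with NaCl (with the block, edgeR adjusted p of 0.0235, 0.108 without mouse 1 and 0.131 without mouse 3, and DESeq2 adjusted p of 0.129). The ATP-gated channel gene *P2rx7* measured 85.0 ± 18.5 CPM in control and 89.2 ± 24.8 CPM with NaCl and did not pass.

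Of 8 tested executors and regulators of cell death, *Serpinb1a*, an inhibitor of neutrophil serine proteases, was lower with the block, at 8.04 ± 1.71 CPM in control and 4.82 ± 0.634 CPM with NaCl (with the block, edgeR adjusted p of 0.0254, and of 0.285 without mouse 2, and DESeq2 adjusted p of 0.21). *Casp8*, the apical caspase of death receptors, had 78.3 ± 0.997 CPM in control and 74.0 ± 8.63 CPM with NaCl. *Ninj1*, which ruptures the plasma membrane after pore formation, had 197 ± 8.34 CPM and 189.6 ± 43.1 CPM, and *Gsdme*, a gasdermin cleaved by caspase-3, had 22.2 ± 0.472 CPM and 23.3 ± 3.32 CPM. None of *Casp8*, *Ninj1* and *Gsdme* passed a test.

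Of the 8 further IL-1 family ligands and soluble inhibitors, 3 reached the count minimum, and *Il18bp*, described above, was the one that passed. *Il1a*, which encodes the second agonist of the IL-1 receptor, was counted 3, 10 and 11 times in control and 3, 9 and 2 times in NaCl, which was too few to show a difference. *Il36a*, *Il36b*, *Il36rn* and *Il1f10* had 0 counts in all 6 libraries, and *Il33* had 1.

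Of the 8 receptor genes 7 were tested and 0 passed with the block, and their median log2 fold change was -0.29. *Il1r1*, the signalling receptor, was counted 2, 0 and 5 times in control and 9, 5 and 2 times in NaCl (edgeR adjusted p of 0.356, and of 0.153 with the block). The decoy receptor *Il1r2* had 2, 2 and 1 counts in control and 0, 1 and 0 in NaCl and was not tested. *Il1rap*, the shared co-receptor, was better covered, at 16.7 ± 0.555 CPM in control and 13.8 ± 0.609 CPM with NaCl, and did not pass (edgeR adjusted p of 0.29 with the block). Of the 11 genes of signalling from these receptors, *Tab3*, an adaptor of the kinase TAK1, was lower with the block, at 22.5 ± 1.41 CPM in control and 16.03 ± 1.46 CPM with NaCl (with the block, edgeR adjusted p of 0.0361, 0.139 without mouse 1 and 0.167 without mouse 2, and DESeq2 adjusted p of 0.179).

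Of 15 tested genes of NF-κB signalling and its targets, 2 were higher and 1 lower with the block, and the median log2 fold change was 0.19. *Nfkbiz*, which encodes the nuclear cofactor IκBζ, measured 16.5, 8.33 and 9.18 CPM in control and 25.03, 23.4 and 21.1 CPM with NaCl. All NaCl libraries lay above all controls and the fold was 2.08, with an edgeR adjusted p of 0.115 without the block, of 0.0206 when control replicate 1 was left out, and of 9.68e-05 with the block. The DESeq2 adjusted p of *Nfkbiz* was 0.00817 without the block. *Tnf*, an NF-κB target and inflammatory cytokine, measured 9.66, 8.88 and 13.6 CPM in control and 15.2, 12.7 and 29.5 CPM with NaCl. NaCl replicate 2 lay within the control range, and the edgeR adjusted p was 0.344 without and 0.0028 with the block, and 0.0769 with the block when mouse 3 was left out. *Ikbkg*, the regulatory subunit of the kinase that frees NF-κB, measured 130.1, 161 and 156 CPM in control and 96.9, 84.3 and 99.2 CPM with NaCl. Its groups did not overlap, and the edgeR adjusted p was 0.0658 without and 0.000602 with the block. Of *Ikbkg* exonic bases, 5.15% lie opposite another gene, with *G6pdx* the main one. *Il6* was counted 0, 1 and 0 times in control and 4, 1 and 0 times in NaCl and was not tested.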

How the data were processed

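RNA of 6 libraries (3 mice, each control and NaCl) was read as 75 bp single-end polyadenylated reads without strand information. The authors trimmed reads with fastp 0.20.0 and aligned them with STAR 2.7.10b. They deposited raw counts per gene, and a normalized signal, the counts divided by DESeq2 size factors. For all 15903 genes of the latter table it equalled the raw count divided by 1 factor per library, so raw counts were used. Submitters' notes name mm10 and the methods an annotation of another build, hence counted genes are placed by chromosome only. The promoter coordinates are those of the RefSeq windows on GRCm38.p6.

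The quasi-likelihood test of edgeR 4.0.16 (glmQLFit, glmQLFTest, TMM, threshold 0.05) was run on genes whose counts summed to 10 or more. Standard errors were derived from the F statistic, and intervals are approximate. DESeq2 1.42.0 and limma 3.58.1 (voom) were alternatives. Other software was R 4.3.3, Python 3.11.15, scipy 1.17.1, numpy 2.4.6, pandas 2.3.3 and matplotlib 3.10.9. Scripts were tested on simulated data. Ratios had 0.5 added to each count. Exonic lengths came from GENCODE M21 and join all annotated exons of a gene. Likeness was computed from log2 CPM (prior count 2) over genes averaging 50 counts or more.

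The labels give the mouse of each library, so the mouse pairs the samples. Over all genes, deviations from the group mean correlated between the libraries of a mouse (0.43, 0.15 and 0.22 for mice 1, 2 and 3, other pairs -0.35 to 0.12). The methods name no mouse term, so the block is an alternative.

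The genes, lists and tests were chosen with earlier results of these data known. Named were the 10 genes, list genes past the threshold without or with the block, 16 genes chosen by role, and the 3 nearest patterns of *Il1b* and *Nlrp3*. Leaving out each library or mouse, other scalings and other filters were also tried.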

Additional observations from a re-analysis of the deposited data

How the results depend on the processing

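With 3 mice, and 4088065 counts in NaCl replicate 3, small changes and genes such as *Il1b*, *Il1a* and *Il1r1* could not be resolved. Of the 10 genes, 0 were higher under every alternative run, and the number lower (0 without the block) was 1, *Il1rn*, with the replicate block (edgeR or DESeq2), with a count minimum of 1, and with the block and each mouse left out. *Il1rn* had adjusted p-values from 0.000206 to 0.739 over all alternatives run, the highest without control replicate 2. For the 72 pathway genes, the numbers higher and lower were 3 and 9 with the replicate block in edgeR, 1 and 2 for DESeq2, 3 and 3 for DESeq2 with the block, and 3 and 3 with a count minimum of 1. Leaving out a library without the block gave 0 to 1 higher and 0 lower, and leaving out a mouse with the block gave 4, 3 and 3 higher and 5, 6 and 8 lower for mice 1, 2 and 3. The causes of these differences were not tested.

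The ratio of *Il1rn* to *Il1b* differed by -0.92 to -1.5 and that of *Il18bp* to *Il18* by -0.23 to -0.63 on the log2 scale when a library was left out. Of 542 refitted values of 32 named genes, 455 kept their direction and side of the threshold, 59 moved past it (13 genes) and 28 changed sign (9 genes). The sign changes were all in genes without a call. *Nlrc4* (-0.0036) became 0.01 for DESeq2, 0.0063 with RLE factors, 0.014 with total counts only and 0.011 with filterByExpr. With a library left out *Nlrc4* ranged from -0.29 to 0.3, *Aim2* from -0.075 to 0.2, *Casp4* from -0.19 to 0.48, *Il1a* from -0.63 to 0.27, *P2rx7* from -0.15 to 0.27, *Naip2* from -0.29 to 0.00098, *Mefv* from -0.038 to 1.06, *Ninj1* from -0.15 to 0.12 and *Gsdme* from -0.03 to 0.19. With the replicate block and a mouse left out, signs changed for *Nlrc4* (0.18 without mouse 2), *Aim2* (-0.006 without mouse 1, -0.067 without mouse 3), *Casp4* (-0.011 without mouse 3), *P2rx7* (-0.005 without mouse 2), *Naip2* (0.014 without mouse 2), *Ninj1* (0.096 without mouse 3) and *Gsdme* (-0.035 without mouse 2). The block changed no call other than those given beside the results.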
